A study of Mus musculus with 6 samples.

Results

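The 9 Ms4a genes described here (Ms4a2, Ms4a4b, Ms4a4c, Ms4a4d, Ms4a6b, Ms4a6c, Ms4a6d, Ms4a7 and Ms4a8a) were taken by gene symbol from expression tables of whole mouse lung that list 23183 genes in all. They belong to a family of membrane proteins that cross the membrane several times and sit beside immune receptors, and the gene of the family that marks B cells was left out of the set. RNA was sequenced from lungs of mice on a C57BL/6 background given either saline or lipopolysaccharide (LPS), the outer membrane component of Gram-negative bacteria, into the trachea, with 3 libraries in each group. The sources used here give no dose, no time between instillation and tissue collection and no age of the mice. The saline libraries are labelled wild type throughout. The LPS libraries have titles that name wild-type mice, whereas their genotype field reads LCN2-/- for LPS 1 and LPS 2 and LCN4-/- for LPS 3. Lcn2, which encodes the iron-binding protein lipocalin-2, stood at 13.60, 13.29 and 13.82 in LPS 1 to 3 and at 8.20, 11.28 and 10.11 in saline 1 to 3 on the log2 scale used below. The libraries are therefore called by their treatment only. If the genotype field is right, genotype follows the groups, and its part in a difference cannot be told apart from that of LPS. Whether each library is a separate animal is not stated in the labels, and the p-values then measure only a spread between libraries that may be technical.

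Levels are the deposited log2(expression value + 1), and a difference is the LPS mean minus the saline mean on that log2 scale. The values before the log appeared to be scaled by transcript length, so levels of different genes are compared as levels per length. A fold change taken from this scale is smaller than the true one where values are low. The summed values before the log ran from 543167 to 632723 in the saline libraries and were 987770 and 1004144 in LPS 1 and LPS 2. The LPS 3 table ends early and lacks 4484 genes, but every Ms4a gene of the set has a value in all 6 libraries.

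MS4A proteins work mainly as partners of other receptors. Ms4a2 encodes the beta chain of the high-affinity IgE receptor, which strengthens the receptor's signal in mast cells and basophils. Several relatives, among them Ms4a6c, Ms4a6d, Ms4a7 and Ms4a8a, are known from monocytes and macrophages, while Ms4a4b and Ms4a6b are known from T cells, where their products associate with the costimulatory receptor GITR. In whole lung, a higher level of such a gene can come from more cells of a type or from more RNA per cell, and bulk tissue cannot tell these apart.

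The set includes neighbouring copies whose LPS differences were unequal, and the stretches before the start sites of 2 such pairs are shown so that their shared letters can be seen. The windows are the 250 bases upstream of the start in RefSeq (assembly GRCm38.p6, plus strand). Each is cut at the first base of an annotated exon of the gene that falls in the window. The Ms4a4c and Ms4a6b windows lie inside the annotated spans of these genes, which begin at chr19:11404770 and chr19:11516512. Whether the RefSeq starts are the ones used in lung was not tested. RefSeq start sites were found for 8 of the 9 genes, all but Ms4a6d, which is therefore not part of the promoter comparisons. Capitals mark runs of at least 12 bases that were identical in the alignment of the pair. The windows are chr19:11518309-11518452 for Ms4a6b, chr19:11469118-11469365 for Ms4a6c, chr19:11443308-11443552 for Ms4a4b and chr19:11407411-11407660 for Ms4a4c.
Ms4a6b: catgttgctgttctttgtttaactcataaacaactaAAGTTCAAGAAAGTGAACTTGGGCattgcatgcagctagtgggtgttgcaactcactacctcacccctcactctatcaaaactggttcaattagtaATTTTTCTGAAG
Ms4a6c: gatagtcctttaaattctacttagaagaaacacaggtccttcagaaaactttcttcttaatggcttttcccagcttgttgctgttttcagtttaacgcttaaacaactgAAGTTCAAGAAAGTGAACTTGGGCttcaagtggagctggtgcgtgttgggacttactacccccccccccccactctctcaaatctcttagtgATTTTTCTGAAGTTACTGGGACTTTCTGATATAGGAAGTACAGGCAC
Ms4a4b: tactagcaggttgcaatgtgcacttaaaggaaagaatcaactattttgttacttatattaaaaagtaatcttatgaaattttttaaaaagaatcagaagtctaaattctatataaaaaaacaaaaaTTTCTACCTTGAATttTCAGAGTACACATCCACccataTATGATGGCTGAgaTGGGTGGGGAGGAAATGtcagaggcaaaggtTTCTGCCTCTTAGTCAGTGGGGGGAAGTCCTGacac
Ms4a4c: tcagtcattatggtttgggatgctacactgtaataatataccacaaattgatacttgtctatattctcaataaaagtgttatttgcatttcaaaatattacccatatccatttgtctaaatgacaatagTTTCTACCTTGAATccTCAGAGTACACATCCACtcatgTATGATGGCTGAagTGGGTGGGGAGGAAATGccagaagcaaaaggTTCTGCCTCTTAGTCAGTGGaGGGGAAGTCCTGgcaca
The Ms4a4b and Ms4a4c windows were identical at 185 of 250 bases (74%), with 6 shared runs that add up to 92 bases and lie within the stretch nearest the start. The Ms4a6b and Ms4a6c windows were identical at 149 of 250 bases (59.6%), against 56.4% for the most similar of the other pairs. However, only 175 bases of Ms4a6b and Ms4a6c were placed opposite each other in the alignment, and 149 of these were identical. The same count was 185 of 231 for Ms4a4b with Ms4a4c, and 141 of 218 for Ms4a4c with Ms4a6b, a pair at 56.4%. Ms4a6b and Ms4a6c share 2 long runs, one of 24 bases and one of 48 bases. The longest run in any other pair of the 8 promoters, Ms4a4b with Ms4a4c aside, was 8 bases. The 48-base run lies 70 bases before the start of Ms4a6b and 1 base before the start of Ms4a6c. The last 106 bases of the Ms4a6b window fall in an exon of another annotated Ms4a6b transcript and are not printed, which cuts the long run short on that line.

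The upstream 250 bases were searched on both strands for short motifs of factors active in myeloid and inflamed cells. The interferon response element, written as GAAA, any 2 bases and GAAA, was found in 0 of the 8 genes with a window and in 2.98% of all 32851 promoters. A form shorter by the last base, GAAANNGAA, was added after the sequences had been seen and was present in Ms4a6b, Ms4a6c and Ms4a7, against 7.13% of all promoters. In Ms4a6b and Ms4a6c it lies inside the shared 24-base run. The PU.1 motif GAGGAAGT was found in 0 of the 8 genes and in 2.44% of all promoters. The NF-kB motif, written as GGG, any 5 bases and CC, was found in 5 of the 8 genes, in Ms4a4b and Ms4a4c inside the shared 12-base run nearest the start, but 45.8% of all promoters hold it. These matches describe letters in a window and not binding.

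In the comparison of LPS with saline lungs, 6 of the 8 Ms4a genes that were high enough to test rose and 0 fell, while 2 missed the threshold. The largest differences were those of Ms4a6d and Ms4a6c, followed by Ms4a4c. Ms4a8a, Ms4a4d and Ms4a6b rose less, Ms4a4b and Ms4a7 did not pass, and Ms4a2 was too low to be tested. Tests are limma on all 13116 genes that reached a value of 1 before the log in at least 3 libraries, with Benjamini-Hochberg adjustment over those genes and a threshold of 0.05. By that rule 25.7% of all genes tested rose (3377) and 24.3% fell (3188), a split that became 798 and 8343 when all libraries were set to equal sums before the log. No Ms4a gene was lower at an unadjusted p under 0.05 either (0 of 8, limma). The median difference of the 8 Ms4a genes was 1.23, against 0.02 for all genes tested. LPS and saline values did not overlap for 6 of the 8, all higher in LPS, and 32.7% of all genes tested did the same.

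**Figure D1:**
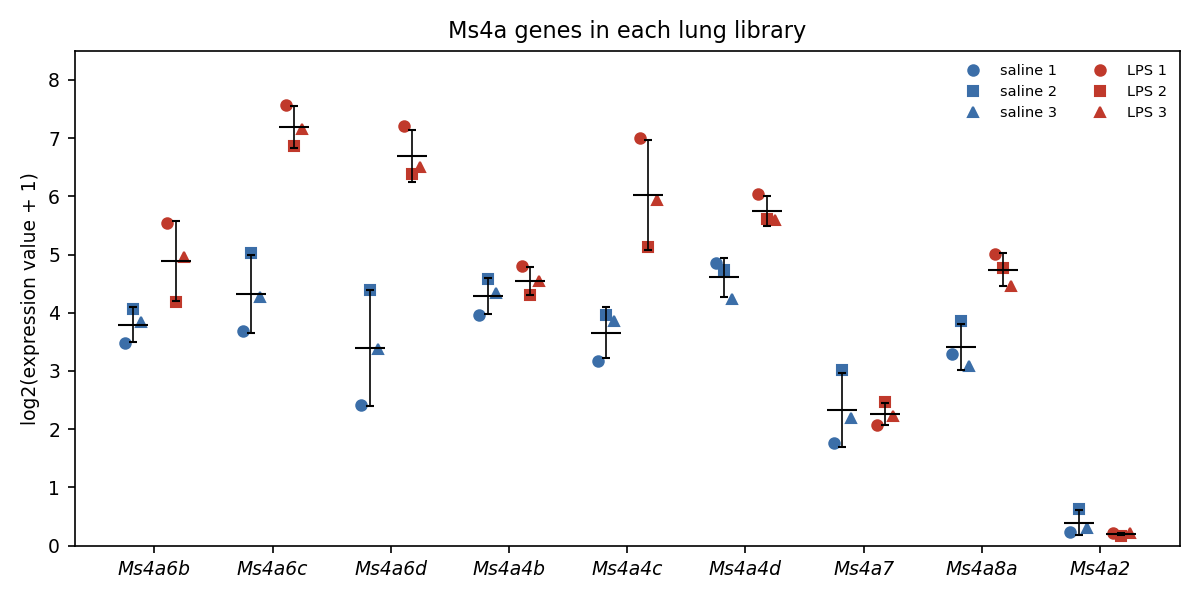
Expression of the 9 Ms4a genes in each library. The vertical axis is log2(expression value + 1), symbols are single libraries, and the horizontal and vertical black lines are the mean and SD of the 3 libraries of a group. The LPS libraries lie above the saline libraries for Ms4a6b, Ms4a6c, Ms4a6d, Ms4a4c, Ms4a4d and Ms4a8a, and the groups overlap for Ms4a4b and Ms4a7.

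Ms4a6d (chr19:11586604-11604849, minus strand), a macrophage surface protein, had the largest difference of the set. Its level was 2.41, 4.40 and 3.38 in saline 1 to 3 and 7.21, 6.38 and 6.50 in LPS 1 to 3. All LPS values lay above all saline values, and the saline libraries themselves differed from each other more than the LPS libraries did. The difference was 3.30 (SE 0.43, adjusted p = 0.000448 by limma, n = 3 per group), a 9.84-fold change on the log2(value + 1) scale, and 79th in the upward order of all genes tested.

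Ms4a6c (chr19:11469366-11482192, plus strand) is a close relative of Ms4a6d. It stood at 3.69, 5.03 and 4.26 in saline 1 to 3 and at 7.57, 6.86 and 7.16 in LPS 1 to 3. The groups did not overlap, and the gap between the highest saline and the lowest LPS library was wide compared with the spread inside either group. It rose by 2.87 (SE 0.32, adjusted p = 0.000223 by limma), or 7.29-fold. Ms4a6b (chr19:11516512-11531256, plus strand), the copy whose promoter shares the long run with Ms4a6c, stood at 3.47, 4.07 and 3.83 in saline and at 5.54, 4.18 and 4.97 in LPS. LPS 2 was barely above saline 2, so the groups were separated by a narrow margin. Its rise of 1.10 (SE 0.31, adjusted p = 0.0156 by limma, 2.15-fold) was the weakest call of the set. It did not pass when all libraries were set to equal sums (0.34, adjusted p = 0.331), when genes with low values were kept (adjusted p = 0.0693), or when saline 2 and LPS 3 were both left out (adjusted p = 0.0625).

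Within the Ms4a4 group, Ms4a4c (chr19:11404770-11427246, plus strand) rose most. It was 3.17, 3.96 and 3.85 in saline and 7.0, 5.12 and 5.94 in LPS. The LPS libraries were well apart from each other, with LPS 1 highest and LPS 2 lowest, and all of them were above the saline libraries. The difference was 2.36 (SE 0.41, adjusted p = 0.00168 by limma, 5.14-fold). Ms4a4d (chr19:11536801-11558467, plus strand) had the highest mean of the set in saline, with 4.86, 4.74 and 4.23, and reached 6.04, 5.61 and 5.60 in LPS. The groups did not overlap and the spread in LPS was small. It rose by 1.14 (SE 0.21, adjusted p = 0.00203 by limma, 2.20-fold), a call that ended when libraries were set to equal sums (0.36, adjusted p = 0.124).

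Ms4a4b (chr19:11443553-11467055, plus strand), the T cell member of this group, did not pass the test. Its values were 3.96, 4.57 and 4.34 in saline and 4.80, 4.30 and 4.54 in LPS, and the groups overlapped. The difference was 0.26 (SE 0.20, adjusted p = 0.296 by limma). With equal sums in all libraries it was -0.51 (adjusted p = 0.0345), a setting that moved the median of all genes from 0.02 to -0.68, so Ms4a4b stayed a little above that median.

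Ms4a8a (chr19:11067471-11081102, minus strand) is known from macrophages in an alternatively activated state. It was 3.29, 3.86 and 3.09 in saline and 5.01, 4.76 and 4.46 in LPS, with no overlap and a similar spread in both groups. It rose by 1.33 (SE 0.22, adjusted p = 0.00144 by limma, 2.51-fold), and by 0.58 with equal sums (adjusted p = 0.0257). Ms4a7 (chr19:11321039-11336146, minus strand), a gene of resident tissue macrophages, was 1.77, 3.01 and 2.19 in saline and 2.08, 2.47 and 2.23 in LPS. All LPS values lay between the lowest and the highest saline value. The difference was -0.06 (SE 0.28, adjusted p = 0.861 by limma). Its sign turned with the scaling and with the libraries used, and with equal sums it was -0.70 (adjusted p = 0.0409), close to the shifted median of all genes.

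Ms4a2 (chr19:11615523-11623719, minus strand), the IgE receptor beta chain, was near the bottom of the range. Its values were 0.24, 0.64 and 0.30 in saline and 0.21, 0.17 and 0.21 in LPS, and no library reached the value of 1 before the log that the test required. All LPS values were below the saline values by a small margin. If the values before the log are of the FPKM or RPKM kind, they correspond to about 5.26 to 22.8 reads per library for Ms4a2, against 92.9 to 192 for Ms4a7 and 542 to 6347 for Ms4a6c. On the same assumption the libraries hold about 17200000 to 24700000 reads, with saline 1 the deepest. Fitted with no filter on low values, Ms4a2 differed by -0.19 and did not pass (adjusted p = 0.215, limma). Whether so few reads could show a difference in Ms4a2 was not tested.

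In saline lungs the order of the mean levels was Ms4a4d, Ms4a6c, Ms4a4b, Ms4a6b, Ms4a4c, Ms4a8a, Ms4a6d, Ms4a7 and Ms4a2. The ranges of neighbours in that order overlapped except for Ms4a7 and Ms4a2. In LPS lungs the order was Ms4a6c, Ms4a6d, Ms4a4c, Ms4a4d, Ms4a6b, Ms4a8a, Ms4a4b, Ms4a7 and Ms4a2, and the ranges were separate between Ms4a4d and Ms4a6b, between Ms4a4b and Ms4a7, and between Ms4a7 and Ms4a2. Ms4a6d moved from rank 7 to rank 2, and Ms4a4b from rank 3 to rank 7.

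The summed level of the 9 genes before the log was 88.3, 152 and 103 in saline 1 to 3 and 635, 345 and 416 in LPS 1 to 3. The lowest LPS sum was above the highest saline sum, and the mean sum was 4.07 times as high in LPS. Ms4a6c made up 17.4% ± 3.67 (SD, n = 3) of the sum in saline and 32.4% ± 2.26 in LPS. Ms4a6d made up 9.10% ± 4.17 in saline and 22.8% ± 1.21 in LPS, so these 2 genes came to hold most of the family signal. The share of Ms4a4d went from 22% ± 8.45 to 11.8% ± 1.84, although its own level rose. Ms4a4b went from 16.7% ± 1.88 to 5.0% ± 0.680, and Ms4a7 from 3.63% ± 0.978 to 0.905% ± 0.403. These shares are a description and were not tested.

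**Figure D2:**
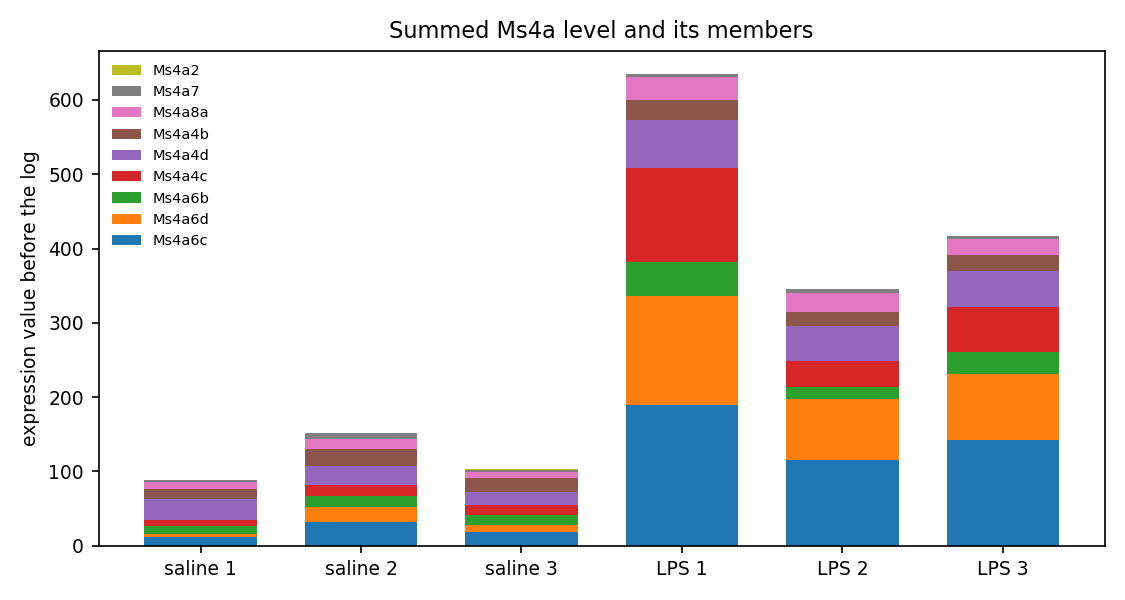
Summed expression of the 9 Ms4a genes before the log in each library. The vertical axis is the expression value before the log, each bar is 1 library and each colour is 1 gene. The LPS bars reach 635, 345 and 416, against 88.3, 152 and 103 in saline, and most of the added height is Ms4a6c, Ms4a6d and Ms4a4c.

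Whether near copies moved by the same amount was asked within libraries, by subtracting the level of one gene from that of another in the same library. Over 6 pairs of genes, an exact permutation test of 3 against 3 libraries, two-sided, cannot give a p below 0.1, so no pair could pass. Ms4a6c minus Ms4a6b was 0.22, 0.96 and 0.43 in saline and 2.02, 2.68 and 2.19 in LPS. The groups did not overlap, and the gap between the copies widened by 1.76 (exact permutation p = 0.1, 0.15 after adjustment over the 6 pairs). Ms4a4c minus Ms4a4b was -0.79, -0.61 and -0.49 in saline and 2.20, 0.82 and 1.40 in LPS. Ms4a4c was thus the lower copy in every saline library and the higher copy in every LPS library, a change of 2.10 (exact permutation p = 0.1, adjusted 0.15).

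Ms4a6d minus Ms4a6b changed by 2.20 and Ms4a7 minus Ms4a6d by -3.36, each without overlap between the groups (exact permutation p = 0.1, adjusted 0.15). Ms4a6d and Ms4a6c moved more alike. Ms4a6d minus Ms4a6c was -1.28, -0.63 and -0.88 in saline and -0.36, -0.48 and -0.66 in LPS, a change of 0.43 with overlapping groups (exact permutation p = 0.2, adjusted 0.2). The change of Ms4a4c minus Ms4a4d was 1.22, also with overlap (exact permutation p = 0.2, adjusted 0.2).

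**Figure D3:**
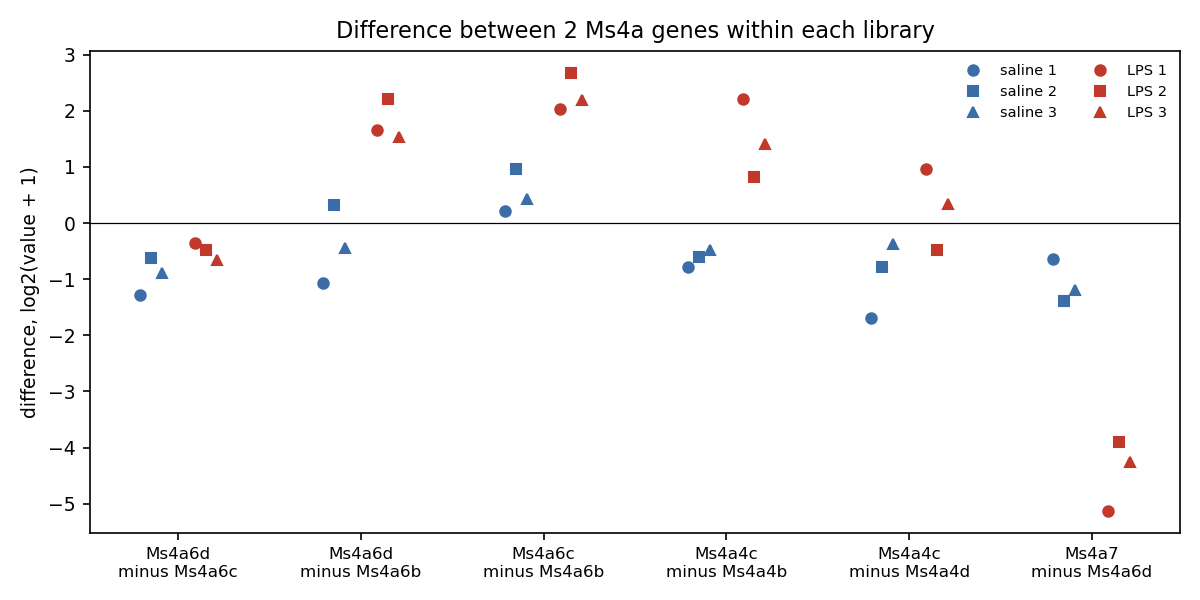
Difference between 2 Ms4a genes within each library, for 6 pairs. The vertical axis is the difference of the log2(value + 1) levels, and symbols are single libraries. Saline and LPS libraries are separate for 4 pairs and overlap for Ms4a6d minus Ms4a6c and for Ms4a4c minus Ms4a4d.

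Reads from near-identical stretches can be assigned to either copy, and the sources used here do not say how the authors' counting treated them. Of the 50-base words in annotated transcripts, 8.19% of those of Ms4a4c and 2.40% of those of Ms4a4b occur in another gene of the family, mostly in each other. The share was 5.85% for Ms4a6c, 3.57% for Ms4a6b and 2.31% for Ms4a6d, and 0 for Ms4a7 and Ms4a8a. Genes on the opposite strand overlap Ms4a6c, Ms4a6b and Ms4a4c. The kit marks strand, but whether counting used it is not stated, so reads from these partners cannot be told apart from the Ms4a genes.

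The 9 genes lie in one cluster on chromosome 19 that spans 679 kb from Ms4a10 to Ms4a3 and holds 35 annotated genes, of which 21 are in the tables. Of the cluster genes outside the set, AW112010 rose and Ms4a1 and Gm8369 fell. AW112010 (chr19:11047612-11055808, minus strand), annotated as a long noncoding RNA, was 6.17, 7.39 and 6.44 in saline and 9.36, 9.25 and 9.43 in LPS. Its difference of 2.68 (SE 0.29, adjusted p = 0.000211 by limma) was near that of Ms4a6c, which lies elsewhere in the cluster. Ms4a1, the B cell member that encodes CD20, was 4.86, 4.92 and 5.57 in saline and 1.76, 2.14 and 2.25 in LPS, and fell by 3.07 (SE 0.22, adjusted p = 5.80e-05 by limma). Genes that rose and the gene with the largest fall thus lay within the same cluster. Gm8369, which lies between Ms4a6c and Ms4a6b, fell by 0.62 (SE 0.18, adjusted p = 0.0189 by limma), and its call ended under quantile normalization (-0.27, adjusted p = 0.285), without saline 3 (-0.48, adjusted p = 0.0777) and without LPS 1 (-0.50, adjusted p = 0.0654). With no filter on low values the call of Gm8369 just missed the threshold (adjusted p = 0.050003, limma). Ms4a5, Ms4a10, Ms4a13 and Ms4a18 are listed at 0 in all libraries. Ms4a3, a gene of granulocyte and monocyte precursors, did not exceed 0.26 in any library.

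**Figure D4:**
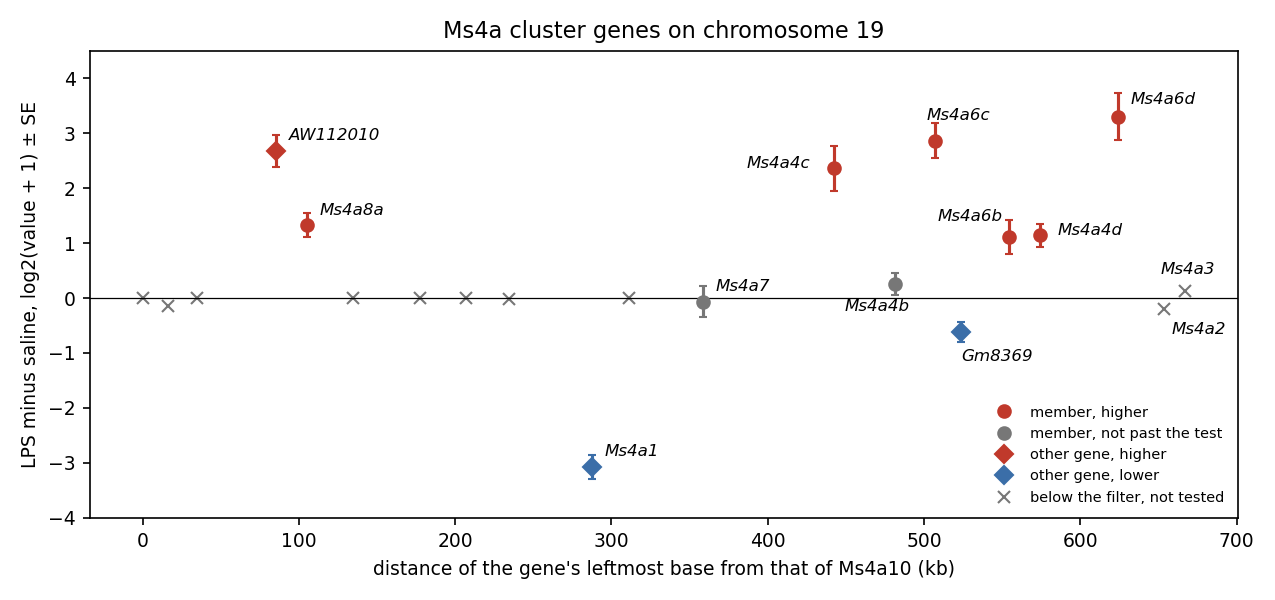
Difference between LPS and saline for the 21 genes of the chromosome 19 cluster that are in the tables. The horizontal axis is the distance of a gene's leftmost base from that of Ms4a10 in kb, the vertical axis is LPS minus saline in log2(value + 1), and bars are the SE of the limma fit, drawn for tested genes only. Red marks genes that rose, blue genes that fell and grey genes that did not pass or were not tested. Ms4a1 at -3.07 and AW112010 at 2.68 lie in the same cluster as the 6 Ms4a genes of the set that rose.

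Tmem176a and Tmem176b, more distant relatives with the same membrane topology, have no value in LPS 3 and were fitted on 5 libraries. Tmem176b was 8.18, 9.13 and 8.58 in saline and 9.65 and 10.01 in LPS 1 and 2, and rose by 1.20 (SE 0.31, adjusted p = 0.0127 by limma), a call that ended with equal sums (0.38, adjusted p = 0.200), under quantile normalization (0.31, adjusted p = 0.263), with no filter on low values (adjusted p = 0.0535) and without LPS 2 (1.02, adjusted p = 0.0898). Tmem176a was 7.99, 8.93 and 8.26 in saline and 8.38 and 8.66 in LPS, a difference of 0.13 (adjusted p = 0.741) that was negative after quantile normalization (-0.67, adjusted p = 0.0337) and with equal sums (-0.69), and close to 0 without saline 1 (-0.072) and without LPS 2 (-0.0093).

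In the IgE receptor pathway, in which Ms4a2 acts, 16 of 18 genes listed could be tested, 6 rose, 3 fell and 7 did not pass, with a median difference of 0.22. Over all genes tested 25.7% rose and 24.3% fell, and nothing is read from the list's counts. Fcer1g, the gamma chain that the IgE receptor shares with activating Fc gamma receptors of macrophages and neutrophils, was 6.14, 7.44 and 6.41 in saline and 9.89, 9.52 and 9.20 in LPS. It rose by 2.87 (SE 0.33, adjusted p = 0.000264 by limma). Fcer1a, the IgE-binding alpha chain, was 0.41 to 0.65 in saline and 0.09 to 0.27 in LPS and was too low to be tested, as was Ms4a2. The chain shared with other receptors was high and rose, while the chains particular to the IgE receptor were near the bottom of the range. Lcp2, the adaptor SLP-76, rose by 2.29 (SE 0.30, adjusted p = 0.000470 by limma). Lyn and Syk, the kinases next to the receptor, the latter fitted on 5 libraries, rose by 0.84 (adjusted p = 0.00711) and 0.82 (adjusted p = 0.0136), and both calls ended with equal sums (0.047 and 0.029) and under quantile normalization (adjusted p = 0.105 and 0.0811). Without LPS 1 the call of Syk ended as well (0.61, adjusted p = 0.0972). Plcg1, a phospholipase, fell by 1.75 (SE 0.20, adjusted p = 0.000232 by limma), and Itpr1, a calcium release channel, fell by 1.17 (SE 0.18, adjusted p = 0.000977). The kinase Fyn fell by 0.48 (adjusted p = 0.0236), and its call ended without saline 1, saline 3, LPS 2 or LPS 3 (-0.42 to -0.45, adjusted p = 0.0728 to 0.0926).

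Of 16 mast cell and basophil markers, only 4 could be tested, and 2 rose, 1 fell and 1 did not pass. Shares over all genes tested were 25.7% higher and 24.3% lower, and nothing is read from the counts of so few genes. The summed level of the list was 83.7 to 87.8 in saline and 80.9 to 91.9 in LPS. This and later list sums cover only genes with a value in all 6 libraries, here 13 of 16, which leaves out Tpsb2. The list's highest genes are ones that other lung cells express as well. Hdc, the histamine-forming enzyme that neutrophils also express, rose by 0.67 (adjusted p = 0.0331 by limma), and Kit, the stem cell factor receptor, fell by 0.70 (adjusted p = 0.0378). The call of Hdc ended without saline 1 (0.42, adjusted p = 0.105), saline 3 (0.75, adjusted p = 0.0523), LPS 1 (0.58, adjusted p = 0.0944) or LPS 3 (0.67, adjusted p = 0.0736), and turned to -0.11 with equal sums. It also ended under quantile normalization (0.30, adjusted p = 0.308) and with no filter on low values (adjusted p = 0.0846). The call of Kit ended without saline 1 (-0.53, adjusted p = 0.118), saline 3 (-0.68, adjusted p = 0.0951), LPS 2 (-0.76, adjusted p = 0.0625) or LPS 3 (-0.48, adjusted p = 0.130). It ended with no filter on low values too (adjusted p = 0.105). The third called gene, Slc18a2, the vesicular monoamine transporter, was 0.72 to 0.87 in saline and 1.22 to 1.25 in LPS and rose by 0.46 (adjusted p = 0.0204), a call that ended without saline 3 (0.43, adjusted p = 0.0735) and with equal sums (0.059, adjusted p = 0.742). It is named as the remaining call, after its values had been seen. The proteases that define connective tissue mast cells were low, with Mcpt4 at 0.71 to 1.54 in saline and 0.00 to 0.10 in LPS, and Tpsb2 at 0.48 to 1.71 in saline and listed at 0 in LPS 1 and 2.

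Receptors and tetraspanins that MS4A proteins are known to bind or to regulate made up a list of 7 genes, of which 4 rose, 0 fell (1 at an unadjusted p under 0.05, limma) and 3 did not pass, with a median difference of 0.94. Among all genes tested 25.7% rose and 24.3% fell, and nothing is read from the counts of these 7 genes. Tyrobp, Trem2 and Tnfrsf18 have no value in LPS 3 and were fitted on 5 libraries. Cd63, a tetraspanin of lysosomes and granules, rose by 2.02 (SE 0.34, adjusted p = 0.00141 by limma). Tyrobp, the signalling adaptor of TREM2 known as DAP12, rose by 1.99 (SE 0.40, adjusted p = 0.00413). Cd9, a tetraspanin of the cell surface, rose by 0.94 (SE 0.20, adjusted p = 0.00429), but by 0.025 under quantile normalization (adjusted p = 0.881) and 0.14 with equal sums (adjusted p = 0.425). Trem2, a lipid-sensing macrophage receptor, was 1.89, 2.83 and 2.15 in saline and 3.28 and 3.72 in LPS 1 and 2. It rose by 1.21 (SE 0.28, adjusted p = 0.00799), a call that ended with equal sums (0.52, adjusted p = 0.114) and without LPS 2 (0.99, adjusted p = 0.0581). Clec7a, the beta-glucan receptor dectin-1, differed by 0.34 (adjusted p = 0.417), by -0.44 with equal sums, and passed without saline 2 (0.79, adjusted p = 0.00432), its highest saline library. Tnfrsf18, which encodes GITR, the partner of the Ms4a4b and Ms4a6b products, differed by 0.31 (adjusted p = 0.238), and by -0.36 with equal sums. Cd81, also a tetraspanin, missed the threshold at -0.41 (adjusted p = 0.0501). It passed without saline 2 (-0.41, adjusted p = 0.0336), under quantile normalization (-1.06) and with equal sums (-1.21). It also passed with a pseudocount of 0.1 (adjusted p = 0.0481), no filter on low values (0.0181) and no variance trend (0.0300). Cd81 did not pass under the other alternatives, which include any other single library left out (adjusted p = 0.0963 to 0.170).

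Markers of the cells in which Ms4a genes are known moved unequally. Of 17 monocyte and recruited macrophage markers, 14 rose, 1 fell and 2 did not pass, with a median of 1.53. Cd14, the LPS co-receptor, rose by 3.59 (adjusted p = 9.74e-05 by limma) and Itgam, the CD11b integrin chain, by 2.78 (adjusted p = 9.74e-05), whereas Lyz2, macrophage lysozyme, fell by 1.0 (adjusted p = 0.0118), a call that ended without LPS 1 (-0.92, adjusted p = 0.0705) or LPS 2 (adjusted p = 0.0599). The call of Lyz2 also ended with no filter on low values (adjusted p = 0.0591). The summed level of this list was 3926 to 5688 in saline and 3404 to 4207 in LPS, with Lyz2 its highest gene at 11.74 to 12.27 in saline and 10.81 to 11.11 in LPS. Of 12 interstitial and tissue macrophage markers, 2 rose, 4 fell and 6 did not pass, with a median of -0.26. Lyve1, a hyaluronan receptor that lymphatic endothelium also expresses, rose by 1.70 (adjusted p = 0.00106) beside Trem2. The antigen-presentation chaperone Cd74 fell by 1.24 (adjusted p = 0.00369). The mannose receptor Mrc1 (-1.19), the folate receptor Folr2 (-0.91) and the scavenger receptor Stab1 (-0.53) fell too, and are named as the remaining calls after their values had been seen. The call of Stab1, fitted on 5 libraries, ended without saline 1 (adjusted p = 0.114), saline 3 (adjusted p = 0.0950) or LPS 2 (-0.37, adjusted p = 0.250). Of 14 alveolar macrophage markers, 1 rose, 7 fell and 6 did not pass, with a median of -0.45. The 2 most changed were Fabp1, which fell by 3.26 (adjusted p = 8.37e-05 by limma), and Cidec, which fell by 2.41 (adjusted p = 0.000535). Fabp1 was 0.00 to 0.86 in LPS. The gene that rose was Chil3, at 0.55 (adjusted p = 0.0302), whose sign was negative with equal sums (-0.25) and under quantile normalization (-0.16). Its call ended with any library but saline 2 left out (adjusted p = 0.0579 to 0.132). Chil3 is in the monocyte list as well and counts among the 14 genes that rose there. With 25.7% of all genes tested higher and 24.3% lower, no direction is read from the counts of the interstitial list. Ms4a6c and Ms4a6d moved in the direction of most monocyte markers.

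For lymphocytes, 0 of 15 T cell markers rose, 8 fell and 7 did not pass, with a median of -0.48 and a summed level of 84.6 to 124 in saline and 66.1 to 77.9 in LPS. Cd2, an adhesion receptor, fell by 1.25 (adjusted p = 0.000305 by limma) and Cd4, the helper T cell co-receptor, by 1.10 (adjusted p = 0.00496). Cd3g, a chain of the T cell receptor complex, did not pass at 0.07 (adjusted p = 0.806), and its sign turned with the scaling and without saline 1 or LPS 2. Of 9 NK cell markers tested, 0 rose and 0 fell, with a median of 0.31. At an unadjusted p under 0.05 the T cell and NK cell lists also had 0 genes higher, and the NK cell list 0 lower (limma). Of 10 B cell markers, 9 fell and 1 did not pass, with a median of -2.04, a smaller fall than that of Ms4a1. Beside the T cell, NK cell and B cell counts, 25.7% of all genes tested rose and 24.3% fell. The part of any of these cell types in the Ms4a values was not tested.

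Neutrophil and interferon-induced genes moved in the same direction as the Ms4a genes that rose. Of 14 neutrophil markers tested, 12 rose, 0 fell (also 0 at an unadjusted p under 0.05, limma) and 2 did not pass, and the summed level was 735 to 2115 in saline and 9939 to 25682 in LPS. S100a8, a calprotectin subunit, rose by 4.18 (adjusted p = 0.000261 by limma). Of 20 interferon-stimulated genes, 19 rose and 1 did not pass, with a median of 2.20. Beside the neutrophil and interferon counts, 25.7% of all genes tested rose and 24.3% fell. Isg15, a ubiquitin-like protein, rose by 3.97 (adjusted p = 0.000602), and the chemokine Cxcl10 by 3.99 (adjusted p = 0.00276). The summed level of the interferon list was 160 to 530 in saline and 1727 to 3351 in LPS.

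Libraries of a group were not evenly spread for the Ms4a genes. Saline 2 had the highest value among the saline libraries for 8 of the 9 genes, as it did for 39.2% of the 10295 genes tested with 6 values, and saline 1 had the lowest for 7 of the 9 (30.9% of all). LPS 1 had the highest value among the LPS libraries for 8 of the 9 (34.1% of all), and LPS 2 the lowest for 6 of the 9 (32.9% of all). Saline 2 and LPS 1 also had the highest sums of their groups in the monocyte, neutrophil, NK cell, eosinophil, interferon and IgE receptor pathway lists. The monocyte sum was 5688 in saline 2, against 4212 and 3926, and 4207 in LPS 1, against 3404 and 4078. This was not so in every list. T cell and B cell sums were highest in saline 3 (124 and 341) and, among the LPS libraries, in LPS 2 (77.9 and 78.7). Saline 2 had the highest neutrophil sum of the saline libraries, 2115 against 735 and 769, and the highest interferon sum, 530 against 160 and 323. LPS 1 had the highest neutrophil sum of the LPS libraries, 25682 against 9939 and 18350, and the highest interferon sum, 3351 against 1727 and 2119. Whether these account for the spread of the Ms4a genes was not tested. The count of 6 Ms4a genes that rose was the same with any 1 library left out, and the limma difference of Ms4a6d was then 2.81 to 3.80 and that of Ms4a6c 2.55 to 3.22.

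For the 3 genes of the set with the highest mean level, the genes most like them were found as those with the smallest distance between centred log2 profiles over the 6 libraries, among 10294 genes. Nearest to Ms4a6c were Mnda, an interferon-inducible nuclear protein of myeloid cells (distance 0.259), Mefv, which encodes the inflammasome protein pyrin (0.336), and Pglyrp1, a peptidoglycan-binding protein of neutrophil granules (0.374). Mnda was 1.38, 2.96 and 1.95 in saline and 5.51, 4.72 and 4.92 in LPS, lower than Ms4a6c but with the same order of libraries. Nearest to Ms4a6d were Ifit1, an interferon-induced RNA-binding protein (0.361), Msr1, a macrophage scavenger receptor (0.407), and Cd300lf, an inhibitory receptor of myeloid cells (0.431). Nearest to Ms4a4d were Gpr4, a proton-sensing receptor known from endothelium (0.308), Ankrd66 (0.331) and the collagenase Mmp13 (0.347). These likenesses rest on 6 libraries of 2 groups and carry no test.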

How the data were processed

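RNA sequencing was done on 6 mouse lung libraries, 3 saline and 3 LPS, grouped by title and treatment field. Trizol extraction of total RNA and a strand-marking library kit are recorded per the labels' protocols. Alignment used TopHat and the mm10 build, per the submitters' processing notes. The sources used here do not name the counting tool, the annotation or the scaling. The deposited values were read, from their range, as log2(value + 1). Products of low values and transcript length fell into steps (fullest bin 56 to 81 genes, against 33 to 43 for the values alone), from which length scaling and approximate read numbers were read. The saline tables hold 3869 zeros each and those of LPS 5117 to 6223. Values above 0 and under 0.01 number 1505 to 1936 in each saline table and 11 to 24 in each LPS table. The step behind these differences is not recorded, and since they follow the groups, table making and treatment cannot be told apart.

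The fit was limma 3.58.1 (R 4.3.3) with a variance trend, after a filter of at least 3 libraries with a value of 1 before the log, and adjusted by the Benjamini-Hochberg method over 13116 genes. The fit was tested on simulated data. Differences between genes of a pair were compared by exact permutation tests. Promoter windows come from RefSeq (GRCm38.p6) and gene models from GENCODE M21. The genes and lists were chosen with earlier results of these data known. Named are the 9 genes, their cluster neighbours, genes of the family, IgE receptor and partner lists, for each marker list up to the 2 highest and the 2 most changed genes, the 3 nearest profiles of the 3 highest genes, and Lcn2. Alternatives were a replicate block, quantile normalization, equal sums, another pseudocount, other filters, no variance trend, a stricter threshold, and libraries left out singly or as a pair. Replicate numbers were not taken to pair the samples, except in the replicate block.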

Additional observations from a re-analysis of the deposited data

How the results depend on the processing

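Ms4a6c, Ms4a6d, Ms4a4c and Ms4a8a rose under every alternative run. Setting libraries to equal sums before the log moved the median of all genes to -0.68 and gave 798 genes higher and 8343 lower, against 3377 and 3188. It left 4 Ms4a genes higher and made 2 lower, Ms4a4b (-0.51) and Ms4a7 (-0.70). Other signs also turned there: Tmem176a (-0.69), Clec7a (-0.44), Tnfrsf18 (-0.36), Chil3 (-0.25), Cd3g (-0.69) and Hdc (-0.11). Under quantile normalization the values were 0.19 for Ms4a7, -0.67 for Tmem176a, -0.16 for Chil3 and -0.029 for Cd3g. Ms4a7 was 0.28 without saline 2, 0.03 without LPS 1 and 0.29 without saline 2 and LPS 3, and -0.34 to 0.28 over the single libraries left out. Without saline 1, Tmem176a was -0.072 and Cd3g -0.15. Without LPS 2 they were -0.0093 and -0.043, and Tmem176a was 0.40 without saline 2. An adjusted p of 0.01 gave 2033 genes higher and 2004 lower, with 5 Ms4a genes higher. A mean of at least 5 before the log gave 2988 higher and 1752 lower of 9304 tested, and fewer low genes entered, Ms4a7 among those left out. With no filter Ms4a2 differed by -0.19 (adjusted p = 0.215, limma). The causes of the other changes were not tested. With the replicate block, 6 Ms4a genes were higher and 0 lower, and all genes gave 2793 and 2624. Correlations of same-numbered libraries, taken on deviations from the group means, were -0.23, -0.08 and -0.25. Those of differently numbered libraries were -0.01 to 0.22. With 3 libraries per group such deviations depend on each other, so they cannot decide whether the numbers pair the samples. The calls of Hdc (adjusted p = 0.0670), Slc18a2 (0.0607) and Stab1 (0.0828) ended with the block.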
